A study of Rattus norvegicus with 9 samples.

Results

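B cell markers are genes whose RNA in a mixed sample of leukocytes comes mainly from B lymphocytes, and 9 of them are described here in preparations of hepatic macrophages from rats with a narrowed portal vein: Ms4a1, Bank1, Cd79a, Cd79b, Pax5, Vpreb3, Cr2, Fcer2 and Blk. They were taken by symbol, from probesets (sets of short probes for one transcript) that the platform annotation gives a single gene symbol. Of the 9, 8 had such a probeset, 1 each, among 18166 genes with a symbol. All 8 were above the level under which genes were treated as dim, a mean log2 signal of 4.16, as were 14014 genes in all. Pax5, the transcription factor that commits cells to the B lineage, had no probeset under its symbol alone and is not analysed here.

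The animals were male Sprague-Dawley rats, and their age is not given in the sources used here. In partial portal vein ligation (PPVL), a ligature tied over a blunt needle leaves a calibrated narrowing of the portal vein, which raises portal pressure. Hepatic macrophages were collected 3 days after PPVL from 3 rats and 10 days after PPVL from another 3, and 3 sham rats had the same operation without a ligature. The day on which sham rats were sampled is not given, so that time since surgery and ligation cannot be told apart. Total RNA of each rat was hybridised to 1 array. The labels describe 9 rats, and no array held the same values as another.

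The array medians lay between 5.21 and 5.26 on the log2 scale. Pairs of arrays correlated at 0.987 to 0.993 across probesets. Precision is limited by how many arrays there are. All 14 macrophage markers were above the dim level, from the lysozyme gene Lyz2 with a mean of 12.85 to the resident macrophage genes Timd4 with 4.40 and Vsig4 with 4.26, which were close to it. The 15 markers of T cells and the 10 of natural killer cells with a usable probeset were above it as well. These lymphocyte signals were strong. On the sham arrays the mean log2 signal was 10.24 to 10.34 over the natural killer markers and 8.93 to 9.11 over the T cell markers. Over the 14 macrophage markers it was 7.39 to 7.40. The share of each cell type in the preparations was not tested. In bulk RNA of this kind, fewer cells of a type and less RNA per cell cannot be told apart.

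B cells recognise antigen through a membrane immunoglobulin that cannot signal alone. The proteins of Cd79a and Cd79b (Igα and Igβ) form the signalling pair attached to it, and kinases such as Blk, Lyn and Syk pass the signal on. Cr2 (CD21) binds complement fragments and lowers the threshold for that signal, Fcer2 (CD23) binds immunoglobulin E with low affinity, and Ms4a1 (CD20) is the surface protein most used to recognise mature B cells. In a healthy liver, B cells lie in the sinusoids and around the portal tracts as a minority of the leukocytes.

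The bases before the gene start of the members past the test at 3 days, Vpreb3 and Cr2, and of Bank1, which followed the other members most closely, are shown 5′ to 3′ on the strand of the gene because these members were higher together after ligation. The 250 bases are those of RefSeq on GRCr8, and capitals mark the motifs found.
Vpreb3, chr20:12718227-12718476, minus strand: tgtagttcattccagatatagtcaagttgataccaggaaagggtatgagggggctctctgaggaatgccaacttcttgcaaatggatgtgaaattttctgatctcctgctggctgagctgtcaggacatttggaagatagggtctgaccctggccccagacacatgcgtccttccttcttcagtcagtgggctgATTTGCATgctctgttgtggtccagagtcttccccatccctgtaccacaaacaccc
Cr2, chr13:109244507-109244756, minus strand: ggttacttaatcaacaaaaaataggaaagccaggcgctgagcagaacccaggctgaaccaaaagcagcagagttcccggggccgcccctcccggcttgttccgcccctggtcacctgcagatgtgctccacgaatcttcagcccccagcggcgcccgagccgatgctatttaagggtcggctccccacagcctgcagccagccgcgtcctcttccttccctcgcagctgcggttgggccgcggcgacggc
Bank1, chr2:227473716-227473965, minus strand: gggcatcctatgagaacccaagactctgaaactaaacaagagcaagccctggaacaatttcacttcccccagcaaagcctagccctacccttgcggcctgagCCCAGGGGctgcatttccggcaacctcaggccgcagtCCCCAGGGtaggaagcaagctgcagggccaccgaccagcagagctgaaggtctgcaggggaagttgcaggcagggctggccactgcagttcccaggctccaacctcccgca
Of the 8 members, 4 matched an entry of this table (Cd79a is the other). On both strands the search covered the octamer ATGCAAAT bound by Oct factors, the EBF palindrome (TCCC and GGGA with 2 bases of any kind between them) and its core CCCNNGGG, the PU.1 motif GAGGAAG and the NF-kB motif (GGGA and CCC with 3 bases of any kind between them). The EBF core lies within the EBF palindrome. The octamer was found in Vpreb3, as ATTTGCAT 56 to 49 bases before the start, and 1.56% of 33469 promoter windows of this length hold it. Bank1 held the EBF core at 148 to 141 and at 111 to 104 bases before the start, and 10.8% of windows hold that core. The EBF palindrome (0.738% of windows), the PU.1 motif (10.2%) and the NF-kB motif (4.75%) were not found in the 4 members. A match describes these letters and is not a measured binding site.

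At 3 days after PPVL, Vpreb3 and Cr2 rose, to 1.78-fold and 1.68-fold of sham, and the other 6 members had higher means than sham without passing the test. Of the 8 members, 2 passed in the upward direction, where 2.15% of all 14014 genes did (2.86% in either direction). All 8 means were above sham, against 45% of all genes. Lowest and highest values of the groups did not overlap for 7 of the 8, each higher after PPVL, against 10.1% of all genes. At an unadjusted p under 0.05, 7 of 8 were higher, against 9.1% of all genes. The median log2 difference over the 8 members was 0.47, and over all genes it was -0.01. The test is the moderated test of limma across all genes with Benjamini-Hochberg adjustment over 14014 genes, differences are log2 differences ± standard error (SE) with n = 3 rats per group, and a gene is called at an adjusted p under 0.05.

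**Figure D1:**
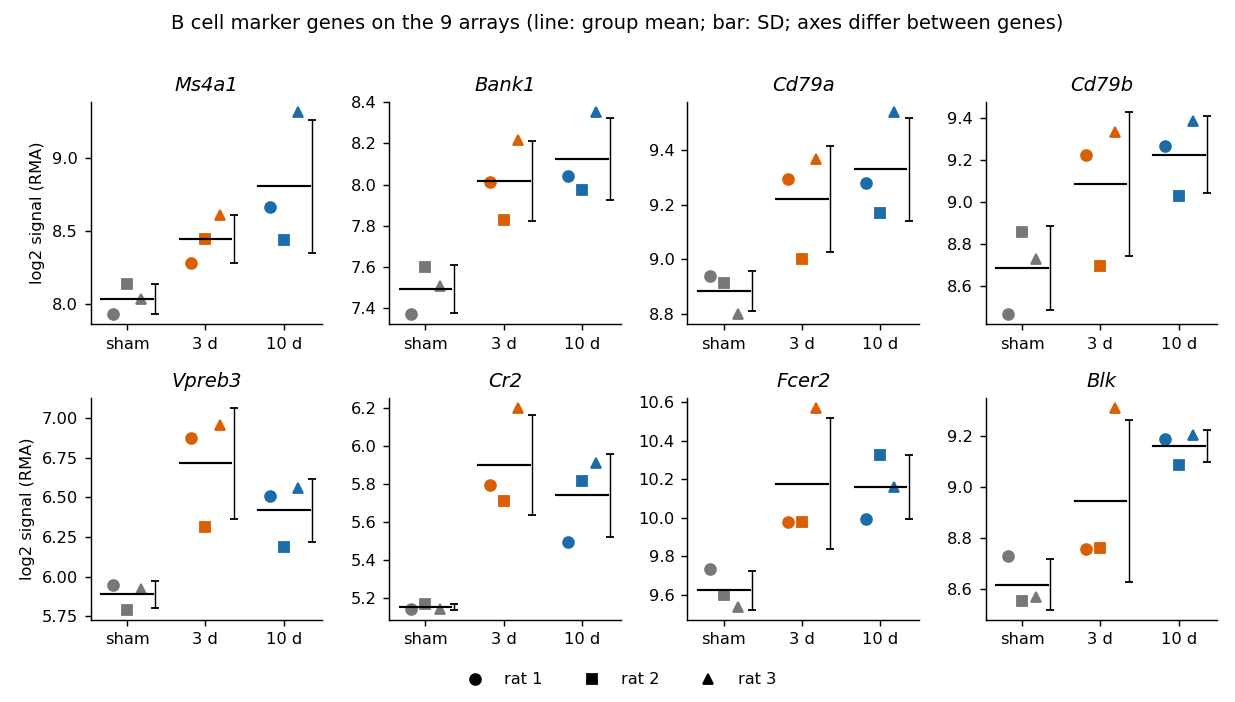
Log2 signal of the 8 members on each of the 9 arrays (vertical axis, its range differing between genes) in sham, 3-day and 10-day rats, with symbols for the rat number, a line for the group mean and a bar for its SD. In 7 panels at 3 days and in all 8 at 10 days every PPVL rat is above every sham rat, the exception being Cd79b in 3-day rat 2, and 3-day rat 3 is the highest 3-day rat in all 8.

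Vpreb3 is a protein of the immunoglobulin-like pre-B cell family that associates with newly made immunoglobulin chains inside the cell. Its log2 signals were 5.95, 5.79 and 5.92 in sham rats 1 to 3, then 6.87, 6.32 and 6.96 in the 3-day rats and 6.51, 6.19 and 6.56 in the 10-day rats. No PPVL rat was as low as a sham rat, and rat 2 was the lowest of each PPVL group. The difference at 3 days was 0.83 ± 0.16 (adjusted p = 0.0285 with limma), and at 10 days it was 0.53 ± 0.16 (adjusted p = 0.150). The call at 3 days was lost when any single sham rat was left out (adjusted p up to 0.101) and when 3-day rat 1 or 3 was (0.0782 and 0.0761).

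Cr2, the complement receptor, had almost the same signal in the 3 sham rats, with 5.15, 5.17 and 5.15. These sham values lay below the array medians (5.21 to 5.26), and the mean of Cr2 was at percentile 34 of the genes tested. Whether the sham signal stands above background was not tested, so the size of the difference is uncertain. The 3-day rats had 5.79, 5.71 and 6.20 and the 10-day rats 5.50, 5.82 and 5.91. The sham values spanned 0.02, while the 3-day values spanned 0.49 and the 10-day values 0.41. Both PPVL groups lay above all sham rats and overlapped each other. Cr2 rose by 0.75 ± 0.14 at 3 days (adjusted p = 0.0213 with limma) and was 0.59 ± 0.14 above sham at 10 days (adjusted p = 0.0770). The call at 3 days was lost without any 1 of the sham rats, with adjusted p up to 0.0704, and was kept without each of the PPVL rats. A fit of only the 2 groups compared and a fit over all probesets called neither gene at 3 days, with adjusted p up to 0.0881 for Vpreb3 and 0.0698 for Cr2.

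Fcer2, the low-affinity receptor for immunoglobulin E, had log2 signals of 9.74, 9.60 and 9.54 in sham rats, of 9.98, 9.98 and 10.57 at 3 days and of 10.00, 10.33 and 10.16 at 10 days. Every PPVL rat was above every sham rat. The differences of 0.55 ± 0.15 at 3 days and 0.54 ± 0.15 at 10 days did not pass the test (adjusted p = 0.102 and 0.128 with limma). Without 3-day rat 3 the 3-day difference was 0.36.

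The signalling pair was higher on most PPVL arrays. Cd79a had 8.94, 8.91 and 8.80 in sham rats, 9.29, 9.0 and 9.37 at 3 days and 9.28, 9.17 and 9.54 at 10 days, with no overlap between sham and either PPVL group. Cd79b had 8.47, 8.86 and 8.73 in sham rats, 9.23, 8.69 and 9.34 at 3 days and 9.27, 9.03 and 9.39 at 10 days. Here 3-day rat 2 lay below 2 of the sham rats. The 2 genes differed from sham by 0.34 ± 0.12 and 0.40 ± 0.17 at 3 days and by 0.45 ± 0.12 and 0.54 ± 0.17 at 10 days, with adjusted p from 0.104 to 0.295.

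The intracellular signalling members were Blk, a Src family kinase of B cells, and Bank1, a scaffold that binds such kinases. Blk had 8.73, 8.55 and 8.57 in sham rats, 8.76, 8.76 and 9.31 at 3 days and 9.19, 9.09 and 9.20 at 10 days. Of the 3-day rats, rats 1 and 2 were just above the highest sham rat and rat 3 stood apart, whereas the 10-day rats lay close to one another and clear of the sham rats. The difference of Blk was 0.33 ± 0.14 at 3 days, and 0.14 without 3-day rat 3, and it was 0.54 ± 0.14 at 10 days (adjusted p = 0.284 and 0.0946 with limma).

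Bank1 had 7.37, 7.60 and 7.51 in sham rats, 8.01, 7.83 and 8.22 at 3 days and 8.04, 7.97 and 8.35 at 10 days, with no overlap between sham and PPVL. Its differences of 0.53 ± 0.12 and 0.63 ± 0.12 were just outside the threshold at both days (adjusted p = 0.0564 and 0.0558 with limma). Bank1 passed at 3 days in 3 and at 10 days in 4 of 9 other ways of filtering, normalising or fitting, with adjusted p down to 0.0433 and 0.0368.

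Ms4a1, the gene of CD20, had 7.93, 8.14 and 8.04 in sham rats, 8.28, 8.45 and 8.61 at 3 days and 8.67, 8.44 and 9.31 at 10 days. The PPVL rats were above all sham rats, and 10-day rat 3 was well above every other array. The difference was 0.41 ± 0.19 at 3 days and 0.77 ± 0.19 at 10 days (adjusted p = 0.344 and 0.0919 with limma), and it was 0.52 at 10 days without 10-day rat 3. The 10-day value was 1.70-fold of sham.

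At 10 days, all 8 members were above sham by 0.45 to 0.77, with a median of 0.54 against -0.0004 over all genes, and none passed the test (adjusted p from 0.0558 to 0.162 with limma). In that comparison 0.492% of all genes passed upward and 0.735% in either direction, and 49.8% were above sham. The groups did not overlap for 8 of 8 members, each higher after PPVL, against 9.88% of all genes. At an unadjusted p under 0.05 all 8 were higher, against 7.99% of all genes (16.2% in either direction). Bank1 was called in 4 of 9 other ways of filtering, normalising or fitting and Blk in 1. Without 3-day rat 3, which enters this fit only through the shared estimate of the spread, 4 members passed, namely Bank1, Cr2, Fcer2 and Blk. The 2 comparisons share the sham rats, so the day values are given side by side and are not independent.

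**Figure D2:**
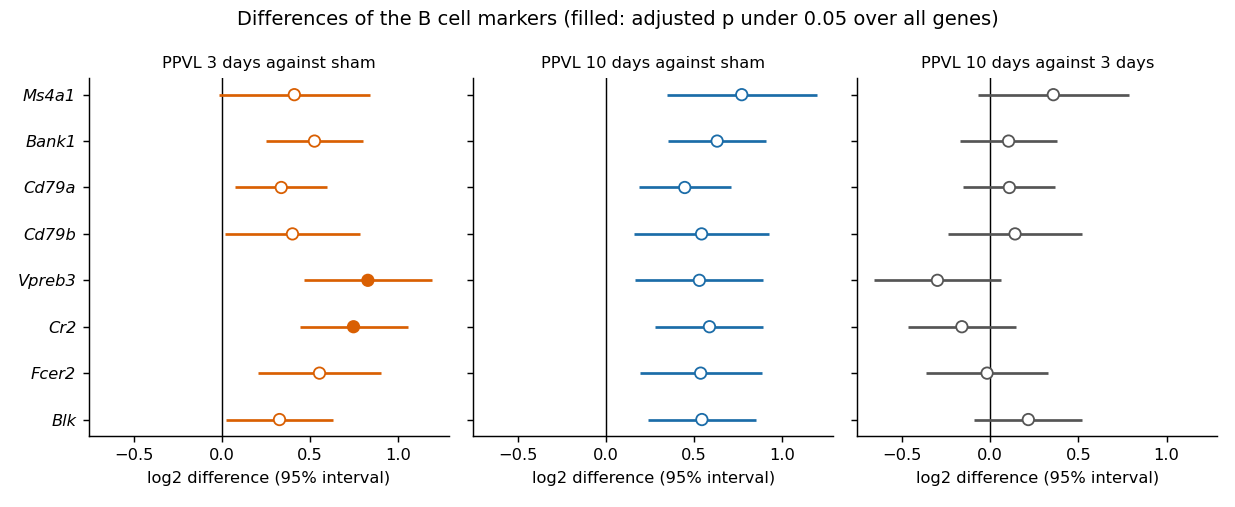
Log2 difference of each member (points) with its 95% interval (lines) for 3 days against sham, 10 days against sham and 10 days against 3 days. Filled points, Vpreb3 and Cr2 at 3 days, have an adjusted p under 0.05 over all 14014 genes, and each interval between the days includes 0.

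Between the days no member passed, in either direction, where 10 of 14014 genes did (0.0714%), and no member had an unadjusted p under 0.05, where 11.3% of all genes did. Ms4a1, Bank1, Cd79a, Cd79b and Blk had higher means at 10 than at 3 days, by 0.10 to 0.36 (51.8% of all genes were higher), and Vpreb3, Cr2 and Fcer2 lower ones, by up to 0.30. For Ms4a1 the difference was 0.36 with a 95% interval of -0.07 to 0.78, and for Vpreb3 the difference was -0.30 with an interval of -0.66 to 0.06. The Ms4a1 difference was 0.11 without 10-day rat 3, and that of Vpreb3 was -0.50 without 3-day rat 2 and -0.18 without 3-day rat 3. Over all 8 members the median difference was 0.11. The order of the group means was sham, 3 days, 10 days for 5 members and sham, 10 days, 3 days for 3, with no interval between the PPVL groups excluding 0. This split rests on single rats: the sign between the days turned without 10-day rat 3 for Bank1, without 3-day rat 2 for Cd79a and Cd79b, and without 3-day rat 3 or 10-day rat 1 for Fcer2.

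The members varied together from rat to rat. Across the 9 arrays the 28 pairs of members correlated with r from 0.57 to 0.95 (median 0.81). After subtraction of each group's mean the correlations of the deviations were still all above 0, from 0.12 to 0.88 (median 0.58). They are descriptions over 9 arrays that share array and library effects. Bank1 followed the mean of the other members most closely (r = 0.976), and Ms4a1 least (r = 0.789). Within groups, 3-day rat 3 was the highest of its group for 8 of 8 members and 10-day rat 3 for 7 of 8, Fcer2 being the exception, while these rats were the highest of their group for 39.8% and 43.8% of all genes. The lowest was rat 2 for 6 of 8 members in each PPVL group, a tie included.

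Genes outside the list with the most similar pattern were ranked by r with the mean centred value of the 8 members over the 9 arrays. The 5 with the highest r were the vesicular nucleotide transporter Slc17a9 (0.996), the class II modulator subunit RT1-DOa (0.977), Ralgps2 (0.977), the proton channel Hvcn1 (0.976) and Cd72 (0.968), an inhibitory co-receptor of B cells. RT1-DOa passed the test at both days, with 0.53 ± 0.11 and 0.58 ± 0.11 (adjusted p = 0.0344 and 0.0491 with limma), and each call held in 2 of 9 fits without 1 array. Slc17a9, Ralgps2, Hvcn1 and Cd72 were 0.30 to 0.53 above sham at 3 days and 0.35 to 0.66 at 10 days, none past the test. The 5 genes were picked on the same 9 arrays for following the members, which were higher after PPVL. Their differences from sham therefore follow from that choice and are no separate result.

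Other genes of the B lineage were read from 7 lists. Of 16 further B cell surface genes, 2 rose at 3 days and 2 at 10 days, none fell, and their median difference was 0.25 and 0.39. Tnfrsf13c, the receptor through which B cells receive the survival factor BAFF, rose at both days, by 0.82 ± 0.13 and 0.78 ± 0.13 (adjusted p = 0.0118 and 0.0449 with limma). Its signals were 7.84, 7.91 and 7.98 in sham rats, 8.79, 8.43 and 8.97 at 3 days and 8.72, 8.52 and 8.82 at 10 days. Every PPVL rat was above every sham rat, and the PPVL groups overlapped each other. The 3-day call of Tnfrsf13c held in all 9 fits without 1 array, and the 10-day call in 3. Cd40, which receives help from T cells, rose at 3 days (0.47 ± 0.10, adjusted p = 0.0380) and the chemokine receptor Ccr6 at 10 days (0.77 ± 0.13, adjusted p = 0.0449), each in 2 of the 9 fits without 1 array. Which cells of the preparation gave the Cd40 signal was not tested. Fcrl1 was 0.58 and 0.71 above sham, just outside the threshold (adjusted p = 0.0586 and 0.0558).

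Of 18 genes of B cell receptor signalling, Syk (0.36 ± 0.06, adjusted p = 0.0199) and Btk (0.60 ± 0.12, adjusted p = 0.0272) rose and the adaptor Blnk fell (-0.76 ± 0.16, adjusted p = 0.0410) at 3 days, and the PI3-kinase subunit Pik3cd fell at 10 days (-0.48 ± 0.08, adjusted p = 0.0449). The list's median difference was 0.05 at 3 days and 0.10 at 10 days. These 4 genes are also used by macrophages and other leukocytes. Leaving out 1 array ended the call of Syk in 5, of Btk in 4, of Blnk in 8 and of Pik3cd in 6 of 9 fits. Cd72 was 0.47 and 0.66 above sham and did not pass (adjusted p = 0.128 and 0.0698).

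Of 13 transcription factors of the B lineage, Irf8, which dendritic cells and macrophages also use, fell at 3 days (-0.38 ± 0.06, adjusted p = 0.0116), a call kept in all 9 fits without 1 array. None rose, and the medians were -0.03 and 0.01. Ebf1, an early factor of B cell commitment, was 0.72 ± 0.22 above sham at 3 days and 0.88 ± 0.22 at 10 days, without overlap with sham and without passing (adjusted p = 0.136 and 0.0965). Pou2f2 was 0.39 and 0.58 above sham (adjusted p = 0.141 and 0.0647). Others that did not pass lay below sham, with Ikzf3 at -0.21 and -0.36 (adjusted p = 0.263 and 0.0750), Bcl11a at -0.53 and -0.20 (0.144 and 0.609) and Irf8 at -0.30 at 10 days (0.0595). At 10 days 4 of the 13 were higher and 4 lower than sham with no overlap, against 9.88% and 11.1% of all genes.

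Genes of antibody-secreting plasma cells gave a median difference of 0.04 at 3 days and 0.01 at 10 days over 10 genes. Of these Sdc1 (CD138), which is also made by epithelial cells and some macrophages, rose at 3 days (0.78 ± 0.12, adjusted p = 0.0103), also in each of 9 fits without 1 array. The joining chain Jchain differed by -0.04 ± 0.29 and 0.43 ± 0.29. None of 6 tested genes of early B cell development was called at either day (limma), and their medians were -0.17 and -0.20. The transcription factor Sox4 differed from sham by -0.77 ± 0.19 at 10 days (adjusted p = 0.0919), and Dntt, which adds bases at the joints of immunoglobulin genes, differed by -0.43 ± 0.11 at 3 days (adjusted p = 0.0848). The rearrangement gene Rag2 was below the dim level, at 3.85. Of 10 genes of marginal zone and B-1 cells, Cd5, which is also a T cell marker, fell at 10 days (-0.58 ± 0.10, adjusted p = 0.0449) in 2 of 9 fits without 1 array, and the medians were -0.10 and -0.09.

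Of 7 tested signals that sustain or attract B cells, Tnfsf13, the gene of the survival factor APRIL, which macrophages secrete, rose at 3 days by 0.91 ± 0.16 (adjusted p = 0.0180 with limma). Its signals were 8.26, 8.90 and 8.75 in sham rats, 9.53, 9.68 and 9.43 at 3 days and 9.54, 9.18 and 9.32 at 10 days, and the 10-day difference of 0.71 ± 0.16 did not pass (adjusted p = 0.0705). The 3-day call of Tnfsf13 was lost in 1 of 9 fits without 1 array (adjusted p = 0.0675). Tnfsf13b, the gene of BAFF, differed by 0.05 ± 0.08 and -0.03 ± 0.08. The B cell chemokines Cxcl13 (2.93) and Cxcl12 (4.14) were below the dim level.

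**Figure D3:**
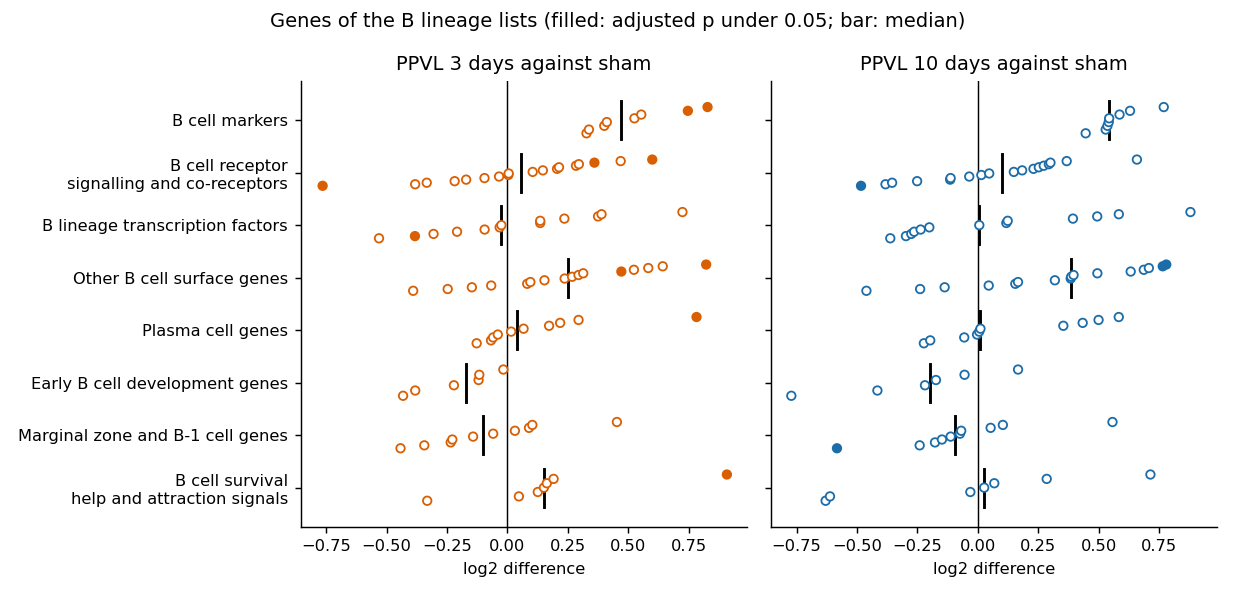
Log2 differences from sham at 3 days (left) and 10 days (right) for the 8 B cell markers and for the tested genes of 7 lists of the B lineage, 1 point per gene. Filled points passed the test over all genes and black bars are medians, which are 0.47 and 0.54 for the markers and between -0.20 and 0.39 for the other lists.

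Markers of other cell types moved on the same arrays. To give each list one level per array, the log2 value of every gene was centred on that gene's 9-array mean and then averaged over the list. The B cell markers had levels of -0.38 to -0.33 in sham rats, -0.07 to 0.41 at 3 days and 0.09 to 0.39 at 10 days. The 15 T cell markers ran the other way, with 0.14 to 0.32 in sham rats, -0.21 to 0.07 at 3 days and -0.28 to -0.08 at 10 days. Of these none was called at 3 days, and Cd5 and Cd6 (-0.64 ± 0.12, adjusted p = 0.0491) fell at 10 days, each in 2 of 9 fits without 1 array. Of the T cell markers 14 of 15 were lower than sham with no overlap at 10 days, against 11.1% of all genes. The 10 natural killer cell markers had levels of 0.16 to 0.26 in sham rats, -0.30 to 0.18 at 3 days and -0.28 to -0.16 at 10 days, none called. The inhibitory receptor Klrc1 differed by -0.29 ± 0.11 and -0.52 ± 0.11 (adjusted p = 0.213 and 0.0595). The lists of T and natural killer cells had no marker below the dim level, and their part in the result was not tested.

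The level of the 14 macrophage markers was -0.24 to -0.23 in sham rats, 0.04 to 0.44 at 3 days and 0.02 to 0.13 at 10 days, and 3-day rat 3, the rat with the highest B cell level, was also the highest here. At 3 days Cd14 (0.92 ± 0.17, adjusted p = 0.0205) and Lyz2 (0.37 ± 0.07, adjusted p = 0.0200) rose among them, in 5 and 4 of 9 fits without 1 array, and none was called at 10 days. Of the members, Fcer2 and Cr2 can also be made by cells other than B cells, follicular dendritic cells among them. Which cells of the preparation gave the Fcer2 and Cr2 signals was not tested. Of the 7 genes listed for follicular dendritic cells, Fdcsp (4.02), Cxcl13 (2.93) and Sox9 (4.06) were below the dim level. Of the 4 tested markers, Mfge8 fell at both days (-0.39 ± 0.08 and -0.54 ± 0.08, adjusted p = 0.0328 and 0.0438 with limma), in 2 and 3 of 9 fits without 1 array. The other 3 did not pass, and Clu was 0.50 above sham at 3 days (adjusted p = 0.169) and Madcam1 0.17 at 10 days (adjusted p = 0.385). Of the 4, 2 were above sham at 3 days and 3 at 10 days. Levels of that list were -0.09 to 0.08 in sham rats, -0.11 to 0.15 at 3 days and -0.10 to -0.05 at 10 days.

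Blk is also used by plasmacytoid dendritic cells. The 4 tested markers of those cells, of 8 listed, had levels of 0.23 to 0.52 in sham rats, -0.55 to -0.11 at 3 days and -0.26 to 0.08 at 10 days. Their median difference was -0.65 at 3 days and -0.36 at 10 days against sham, and 0.21 between the days, where Blk had 0.33, 0.54 and 0.22. Of the 4, Runx2 fell at 3 days (-0.49 ± 0.07, adjusted p = 0.00658) in all 9 fits without 1 array. Lair1 was below the dim level (3.79). The 9 neutrophil markers had levels of -0.97 to 0.21 in sham rats, -0.05 to 0.62 at 3 days and -0.50 to 0.10 at 10 days, with Csf3r risen at 3 days (1.04 ± 0.21, adjusted p = 0.0326) in 3 of 9 fits without 1 array. The 7 hepatocyte markers had -0.31 to -0.05, -0.20 to 0.31 and 0.02 to 0.10, with Hp risen at 3 days (0.72 ± 0.13, adjusted p = 0.0225) in 5 of 9 such fits, and Apob and Fabp1 were below the dim level. In 3-day rats 1 to 3 the hepatocyte levels were 0.22, -0.20 and 0.31. The B cell levels, 0.12, -0.07 and 0.41, had the same order. In 3-day rat 2, the lowest 3-day rat for 6 of 8 B cell markers, the hepatocyte level was lower than in sham rats 1 and 3. Of the 3-day rats, rat 3 was also the highest for the plasma cell list (0.28) and the lowest for natural killer markers (-0.30). The part of these lists in the B cell result was not tested.

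**Figure D4:**
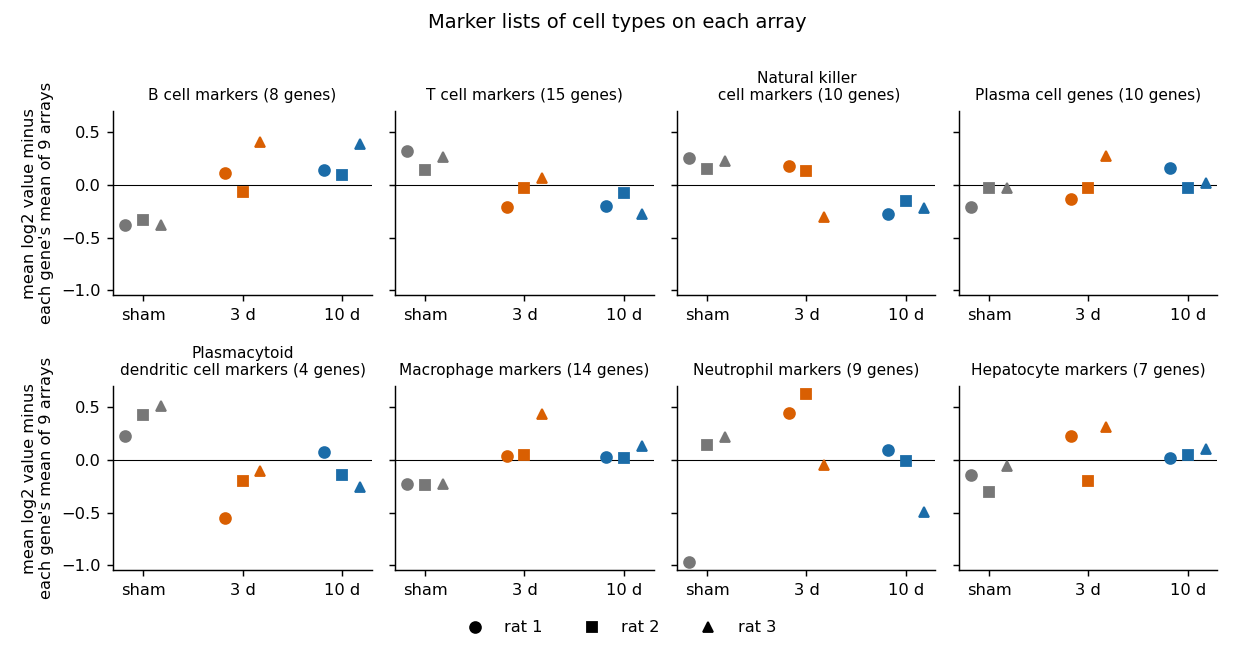
Level of 8 marker lists on each array (average of its genes' log2 values after each gene is centred on its 9-array mean, vertical axis) in sham, 3-day and 10-day rats, with symbols for the rat number. B cell and macrophage markers are higher in every PPVL rat than in every sham rat, T cell markers are lower, and natural killer cell markers are lower than in every sham rat in all 10-day rats and in 3-day rats 2 and 3.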

How the data were processed

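RNA of hepatic macrophages from 9 rats was hybridised to 1-colour Affymetrix arrays holding 36685 probesets. The deposited log2 values were made by the authors with RMA (robust multi-array average), and the submitters' processing notes also name Transcriptome Analysis Console. Versions and the genome build are not given in the sources used here. No further normalization was applied. Probesets with 1 symbol in the platform annotation numbered 18511 (575 had several and 17599 none), and the one with the highest mean stood for each gene. A gene was tested if its mean reached the 30th percentile over probesets.

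Linear models were fitted with limma 3.58.1 (R 4.3.3) to the 9 arrays together (6 degrees of freedom left by the fit plus 3.59 from the prior), with a 2-sided moderated test and Benjamini-Hochberg adjustment in each of 3 comparisons. An exact permutation test of 3 rats against 3 cannot go below p = 0.1. The procedure was tested on simulated data. The members and lists were chosen with earlier results of these data known. Named genes were taken from all members, up to 3 genes per B lineage list and up to 2 per other list and comparison (those past the test by size, then by smallest p), and the 5 genes most like the members. Genes named outside this rule were chosen after their values were seen: Cxcl13, Cxcl12, Rag2, Fdcsp, Sox9, Lair1, Apob, Fabp1, Tnfsf13b, Timd4, Vsig4 and the genes of the closing observations. The alternatives covered filters, probesets, normalization, moderation, array weights, a replicate block, the groups in the fit, thresholds and single arrays left out. For arrays no depth applies.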

Additional observations from a re-analysis of the deposited data

Results flagged for a closer look

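The immunoglobulin kappa variable gene Igkvl7 was, among the members, the list genes and the immunoglobulin genes, the single gene whose difference between the days passed the test. It was 0.76 ± 0.09 higher at 10 than at 3 days (adjusted p = 0.0324 with limma), after a fall of 0.53 at 3 days (-0.53, adjusted p = 0.0195) and a value of 0.23 above sham at 10 days (adjusted p = 0.258). Its log2 signals were 5.02, 5.13 and 5.03 in sham rats, 4.62, 4.55 and 4.43 at 3 days and 5.38, 5.08 and 5.42 at 10 days. All sham and 3-day values lay below the array medians (5.21 to 5.26). Whether they stand above background was not tested, so the sizes of these differences are uncertain. The 3-day fall held in 5 of 9 fits without 1 array (adjusted p at most 0.0736), and the difference between the days in 2 (0.70 to 0.87, adjusted p up to 0.130). Probes of variable genes can also bind near-identical copies, so the value may not belong to this gene alone.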

How the results depend on the processing

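The 3-day count of 401 genes was 191 with all probesets, 264 with the replicate block, 134 with only the 2 groups compared, 709 at an adjusted p under 0.10, 214 with a 1.5-fold minimum and 190 to 327 without 1 array. The 10-day count of 103 was 0 with no filter, all probesets or the replicate block, 173 with a filter at the 50th percentile or trend and robust moderation, 170 with quantile normalization, 197 with array weights, 61 with only the 2 groups, 444 at 0.10, 47 with the 1.5-fold minimum and 0 to 140 without 1 array (0 without sham rat 2, sham rat 3 or 10-day rat 3). At an unadjusted p under 0.05 limma gave 2271 genes at 10 days. The 10 genes between the days became 0 with all probesets or the block, 3 with only the 2 groups and 0 to 18 without 1 array, against 1578 at an unadjusted p under 0.05. Of the 8 members, the 2 called at 3 days became 0 with all probesets or only the 2 groups and 0 to 3 without 1 array (0 without each sham rat, 1 without 3-day rat 1 or 3). The 0 called at 10 days became 1 with the 50th percentile filter, quantile normalization, trend and robust moderation, array weights or only the 2 groups, 4 at 0.10 and 0 to 4 without 1 array. The members' median difference was 0.34 to 0.61 at 3 days, 0.51 to 0.61 at 10 days and -0.027 (without 3-day rat 2) to 0.19 between the days without 1 array. Between the days Bank1 (-0.0091 to 0.20), Cd79a (-0.00053 to 0.19), Cd79b (-0.054 to 0.27) and Fcer2 (-0.12 to 0.18) changed sign without 1 array, and Fcer2 also with quantile normalization (0.031) and array weights (0.033). No member changed direction against sham in these fits. The cause of these changes was not tested.

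Rats with the same number did not deviate together, with correlations of -0.095 to 0.084 over 9 pairs, none above 0.1, and not every rat correlated best with its own number. These correlations gave no sign of a pairing by number, but they cannot exclude that arrays of the same number were processed together. With the replicate block 2 members were called at 3 days and 0 at 10 days.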

Other observations

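Immunoglobulin genes were read by symbol after values had been seen, so the choice is not independent of them. Of 15 on the array, 9 were tested. At 3 days the heavy chain gene Ighl14 rose by 1.36 ± 0.29 (adjusted p = 0.0407 with limma) and Igkvl7 fell, and at 10 days none was called. Ighl14 had log2 signals of 7.19, 7.95 and 7.66 in sham rats, 8.92, 8.42 and 9.52 at 3 days and 8.91, 9.41 and 8.73 at 10 days. Every PPVL rat was above every sham rat, the PPVL groups overlapped each other, and its 10-day difference was 1.42 (adjusted p = 0.0595). The call of Ighl14 held in 2 of the 9 fits that left out a single array (adjusted p at most 0.129). The light chain gene Iglc1 was 0.51 and 0.81 above sham at 3 and 10 days without passing. Medians over the 9 genes were 0.27 and 0.32. These genes belong to families of near-identical copies, and their signals are uncertain for single genes.

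Ms4a1 has neighbours in its own family that other leukocytes use. Of 10 other tested Ms4a genes none was called at 3 days, at 10 days or between the days (limma), and their median differences from sham were -0.06 and -0.01. The lowest values were those of Ms4a4a at 3 days, by -0.60 (adjusted p = 0.116), and at 10 days, by -0.34. The highest were those of Ms4a6a, 0.48 at 3 days and 0.24 at 10 days, where Ms4a1 had 0.41 and 0.77. Of the 10, 3 were above sham at 3 days and 5 at 10 days.

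The genes whose pattern ran most opposite to the members over the 9 arrays were Plaat3 (r = -0.961), Cd8a (-0.951), Septin11 (-0.937), Ubash3b (-0.930) and Serp1 (-0.929). They were picked on the same 9 arrays for this opposite pattern, which is therefore no separate result. Cd8a is one of the T cell markers listed, and which cells of the preparation gave its signal was not tested.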
